A study of Mus musculus with 6 samples.

Results

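The proteasome genes described here are the protein-coding genes whose symbols begin with Psma, Psmb, Psmc, Psmd or Psme followed by a number, a rule applied to names and annotated class only and using no measured value. It took 45 of the 54232 genes of the table. The RNA came from cardiomyocytes of adult male mice, released from the heart by retrograde perfusion with collagenase, plated on laminin and collected after 4 h. In 3 libraries the mice carried UtyGt(XS0378)Wtsi, a gene trap in intron 4 of Uty that brings a splice acceptor and a stop codon and was introduced through 129P2/OlaHsd embryonic stem cells. The other 3 libraries came from wild-type mice that carried the Y chromosome of 129P2/OlaHsd. Both strains had been crossed to C57BL/6J females for more than 10 generations, so the groups shared the nuclear background and the origin of the Y chromosome, and no treatment is given for either. The labels name the wild-type libraries e, f, g and the gene-trap libraries d, e, f, and values are given in that order throughout. The trap is present in all cells of the mouse, all mice of the strain descend from a single trapped allele, and the sources used here do not say how many hearts went into a library.

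The proteasome degrades proteins that carry ubiquitin chains. Its 20S core is a barrel of outer alpha rings, which gate the entry, and inner beta rings, of which the subunits encoded by Psmb5, Psmb6 and Psmb7 cut peptide bonds. The 19S regulatory particle caps the core with a ring of ATPases, which unfold the substrate, and a set of non-ATPase subunits, which bind and remove ubiquitin; core and cap together form the 26S proteasome. In cells exposed to interferon, and constitutively in many immune cells, Psmb8, Psmb9 and Psmb10 encode replacements for the cutting subunits (the immunoproteasome), and the Psme genes encode other activators that open the core. In the heart the proteasome is known for its part in the turnover of sarcomere proteins.

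The members comprised 7 alpha subunits and 7 beta subunits of the standard core, 6 ATPases and 11 non-ATPases of the 19S particle, 3 chaperones of 19S assembly, 3 immunoproteasome subunits and 5 activator genes. Those of the 20S core and the 19S particle, 31 in all, are called core subunits below. The remaining members were Psma8, a germline alpha subunit, Psmb11, the thymus-specific beta subunit, and Psmc3ip, which matches the naming pattern but encodes a protein of meiotic recombination and no proteasome subunit. Values are normalized counts, which are the reads of a gene divided by a size factor of its library. A total of 44 members reached a mean of 10 normalized counts and entered the test. Psmb11 did not, with 4 reads in all, of which 1 was in gene-trap e and 3 were in gene-trap f.

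The libraries held 28283654 to 48377453 reads in genes. Uty had 877 to 1093 normalized counts in the wild-type libraries and 8.03 to 13.9 in the gene-trap libraries, as labelled. Of 8 cardiomyocyte markers all were abundant in every library, with summed levels of 1668740 to 1754510 normalized counts in wild type and 1738760 to 1905900 in gene trap. The libraries differed in 3 other respects. Reads from mitochondrial genes made up 46.9% to 54.7% of the wild-type libraries and 39.8% to 44.8% of the gene-trap libraries, without overlap. Gene-trap f had reads in 28619 genes, against 21615 to 22917 in the other 5 libraries. The summed level of 4 atrial markers (Myl7, Myl4, Sln and Nppa, all detected in every library) stood at 9652 normalized counts for gene-trap e and 5954 for gene-trap f. It was 1102 for gene-trap d and from 829 to 978 for the wild-type libraries. The part of these differences in the results below was not tested. Calls of the members are also given with single libraries left out. Genes that work with the proteasome are given from the fit of all libraries only. Whether the libraries came from separate animals is not stated, so that p-values measure the spread between these libraries only.

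All 31 core subunits were expressed in the cardiomyocytes. Per kilobase of annotated exon, wild-type levels of the core subunits ran from 198 normalized counts for Psma5 to 2122 for Psmb2, a range of 10.7-fold, with a median of 463. The ATPases spanned 3.33-fold, from 405 for Psmc2 to 1348 for Psmc1, and the non-ATPases spanned 3.58-fold, from 262 for Psmd13 to 939 for Psmd2. Psme4, which encodes the large activator PA200, had the highest level among the activators at 2079 normalized counts per kilobase. The immunoproteasome genes Psmb8 and Psmb9 had 23.0 and 9.95 normalized counts per kilobase in wild type, and Psma8 had 7.07. Lengths were taken over all annotated exons; over the principal transcript alone the wild-type level of Psmb2 was 2975 normalized counts per kilobase and that of Psma5 was 211.

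The levels of a few members are uncertain because other genes hold the same sequence. Of all 50-base windows in the transcripts of Psmb5, 54.1% also occurred in another annotated gene. This share was 49.96% for Psma5, 69.3% for Psme2b and 28.3% for Psme2, the latter pair sharing 541 windows with each other, and 24.95% for Psmd9. The sources used here do not say how reads with several matches were counted, and these levels may be too low or mixed. For Psmb6 the share was 1.05%, and for Psme3, Psme4, Psma6, Psmc4 and Psmd4 it was 0, while for Psmb3 it was 17.8%.

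**Figure D1:**
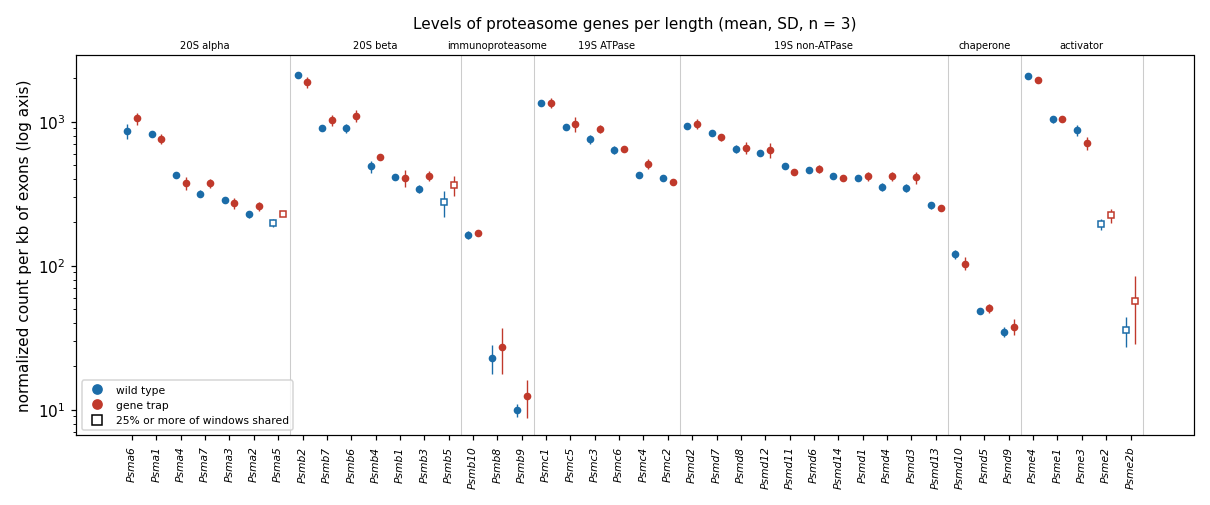
Wild-type (blue) and gene-trap (red) levels of the 20S, 19S, immunoproteasome and activator genes as normalized counts per kilobase of exon on a log axis, as means with the SD over 3 libraries; open squares mark genes with 25% or more of their 50-base windows shared with another gene. The core subunits lie between 198 and 2122 in wild type, and Psmb8 and Psmb9 lie at 23.0 and 9.95.

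By the main test, gene-trap and wild-type cardiomyocytes differed little in these genes. Of 44 members tested with limma, Psmb3 and Psmb6 rose, Psme3 fell and 41 did not pass an adjusted p of 0.05. The 2 that rose are 4.55% of the members, while 4.56% of all 13867 genes tested rose; the 1 that fell is 2.27%, while 6.12% of all genes fell. By either count the members were called no more often than genes at large. The median log2 fold change was 0.06 over the members and 0.00 over all genes, and the median size of a change without regard to sign was 0.18 in both. For 37 of 44 members the 95% interval of the log2 fold change lay within 0.5 of 0.

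Counts by other rules leaned upward. A total of 12 members (27.3%) had a positive fold change with an unadjusted p under 0.05 by limma, against 13.1% of all genes, and 4 (9.09%) a negative one, against 15.0%. All 12 were core subunits (38.7% of 31), and 8 of them were standard 20S genes (57.1% of 14). The core held 3 of the negative ones (9.68%), of which 2 were standard 20S genes (14.3%). In 9 members (20.5%) every gene-trap library lay above every wild-type library, against 14.2% of all genes, and in 6 (13.6%) every gene-trap library lay below, against 17.7%. With count models on the reads recovered from the table, edgeR called 5 members higher (11.4%, against 5.26% of all genes) and 1 lower (2.27%, against 5.85%). DESeq2 called 6 higher (13.6%, against 5.17%) and 1 lower (2.27%, against 6.43%). Limma after upper-quartile scaling gave 7 higher and 1 lower (705 and 737 over all genes), after quantile normalization 7 and 0 (644 and 740), and after scaling to nuclear genes 8 and 1 (707 and 693). Psmb3, Psmb6, Psmc3 and Psmc4 were among the members called higher by both count models. Psme3 was the member called lower by each of the 3 tools, though not after quantile normalization.

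The calls depended on single libraries, and so did those over all genes. With limma, no member passed in either direction when gene-trap d was left out, nor without wild-type e or without wild-type f, where 2.01%, 1.20% and 1.41% of all genes rose and 2.66%, 1.76% and 1.68% fell. Without gene-trap e none rose and 2 fell (Psmb2 and Psme3), against 7.20% and 8.83% of all genes. Without gene-trap f 5 rose (Psma6, Psmb6, Psmc3, Psmc4 and Psmd3) and none fell, against 3.82% and 5.05%. Without wild-type g 3 rose (Psma6, Psmb6 and Psmc3) and Psme3 fell, against 3.40% and 4.62%. In gene-trap d alone, the gene-trap library with low atrial markers, the median log2 fold change of the members was 0.08, against 0.00 over all genes. A lone library gives no spread within gene trap, so no calls are given for it. The median log2 fold change of the members was 0.00 without gene-trap e, with 22 of 44 members positive, and 0.08 without gene-trap f, with 30 positive.

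**Figure D2:**
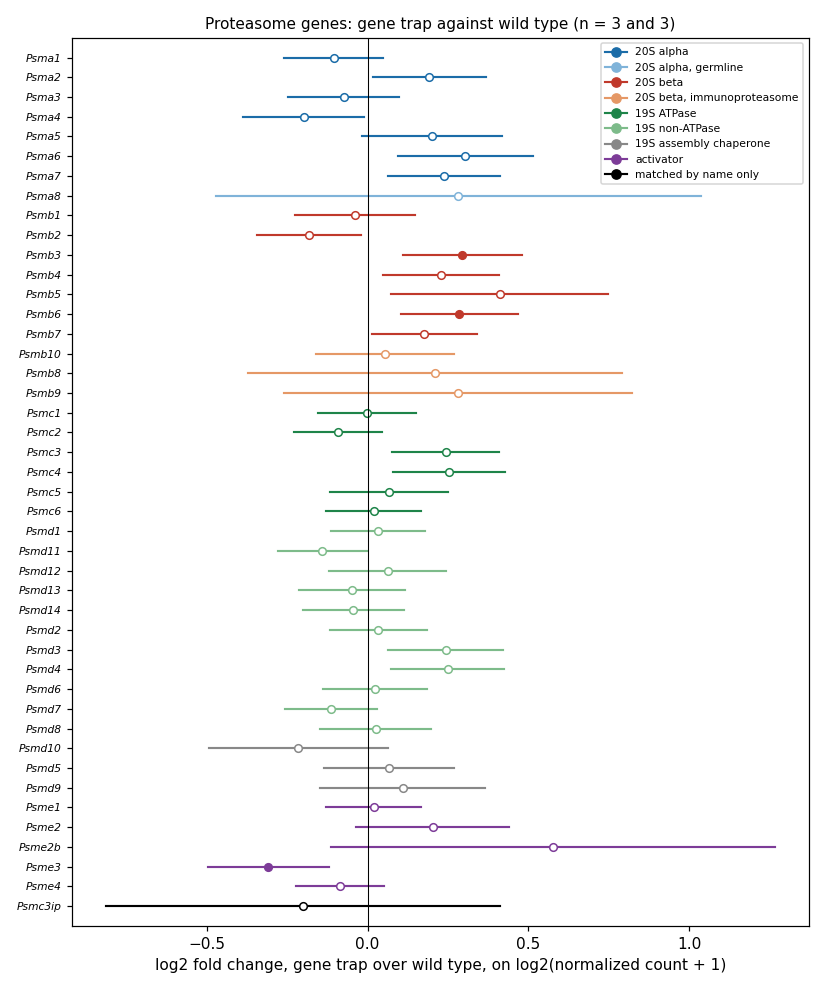
Log2 fold change of each of the 44 tested proteasome genes, gene trap over wild type, on the scale of log2(normalized count + 1), with its 95% interval from limma and coloured by role; filled points passed an adjusted p of 0.05. Psmb3 and Psmb6 are the filled points above 0 and Psme3 the filled point below.

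Promoter sequences of 38 members were found in RefSeq (GRCm38.p6), each reaching from 250 bases before to 50 bases after the start of the gene as RefSeq gives it. That start differs from the GENCODE start behind the gene coordinates given here for Psmb3 (97703434 in RefSeq), Psmb6 (70525357) and Psmb9 (34187330), and the window of Psmb9 lies inside the GENCODE span of the gene. The sequences of the 3 members that passed the test and of Psmb9 are shown because proteasome genes are known targets of NRF1, which binds antioxidant response elements, and immunoproteasome genes are known targets of interferon. Capitals mark matches, on either strand, to the antioxidant response element TGACNNNGC, the NF-Y box CCAAT, the SP1 box GGGCGG and the core of the interferon-stimulated response element. The lines run 5′ to 3′ along each gene.
Psmb3 (chr11:97703184-97703483, plus strand): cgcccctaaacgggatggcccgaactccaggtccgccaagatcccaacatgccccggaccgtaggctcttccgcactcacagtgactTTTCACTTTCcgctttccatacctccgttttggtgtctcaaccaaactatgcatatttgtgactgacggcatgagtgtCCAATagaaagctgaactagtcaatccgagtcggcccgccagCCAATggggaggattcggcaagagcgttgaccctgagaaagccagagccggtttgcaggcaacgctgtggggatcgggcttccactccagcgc
Psmb6 (chr11:70525107-70525406, plus strand): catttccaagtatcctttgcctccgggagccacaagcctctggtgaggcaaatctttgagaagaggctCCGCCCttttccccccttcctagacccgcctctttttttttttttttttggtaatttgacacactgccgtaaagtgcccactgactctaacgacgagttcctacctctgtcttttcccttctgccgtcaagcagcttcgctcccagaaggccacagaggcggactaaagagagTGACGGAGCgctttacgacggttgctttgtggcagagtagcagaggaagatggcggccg
Psme3 (chr11:101315963-101316262, plus strand): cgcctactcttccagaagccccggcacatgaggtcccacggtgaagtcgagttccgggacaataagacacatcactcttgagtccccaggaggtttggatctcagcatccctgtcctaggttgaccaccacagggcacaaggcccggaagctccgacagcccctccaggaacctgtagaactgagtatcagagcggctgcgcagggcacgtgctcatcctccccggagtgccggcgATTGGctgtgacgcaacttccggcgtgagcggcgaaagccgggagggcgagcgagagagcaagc
Psmb9 (chr17:34187281-34187580, minus strand): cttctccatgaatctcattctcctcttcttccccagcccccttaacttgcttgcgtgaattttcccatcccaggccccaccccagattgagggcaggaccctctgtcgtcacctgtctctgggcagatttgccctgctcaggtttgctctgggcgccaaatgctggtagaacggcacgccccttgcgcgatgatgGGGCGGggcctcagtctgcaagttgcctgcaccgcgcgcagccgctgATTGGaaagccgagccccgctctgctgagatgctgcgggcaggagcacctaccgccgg

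In Psmb3 there were 2 NF-Y boxes, 85 and 43 bases before the RefSeq start, and a core interferon element on the opposite strand. In Psmb6 an antioxidant response element began 9 bases before the start and an SP1 box lay 182 bases before it. Psme3 had an NF-Y box 14 bases before the start, and Psmb9 had an NF-Y box and an SP1 box. The antioxidant response element occurred in 6 of the 38 members (15.8%: Psmc6, Psmd9, Psmd12, Psmb5, Psmb6 and Psme4) and in 14.0% of 27025 genes with a promoter in the same table. The NF-Y box occurred in 39.5% of members and 41.1% of genes, the SP1 box in 57.9% and 38.2%, and the core interferon element in 4 members (10.5%: Psmd9, Psmd4, Psmb3 and Psme1) against 3.99% of genes. These are matches of letters in a window, on both strands, and the motifs do not overlap in the sequences shown. The 27025 genes were not limited by gene class or expression, so their shares are not those of genes like the members. The 38 members include Psmb11 and Psmc3ip, and the shares were not tested.

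The 20S core gave both of the members that rose. Psmb3, on chromosome 11 at 97703399 to 97713500 (GRCm38, plus strand), encodes a structural beta subunit without peptidase activity. It had 826, 729 and 804 normalized counts in wild type and 891, 1052 and 954 in gene trap. All 3 gene-trap libraries were above the wild-type range, the highest being gene-trap e. The means were 787 ± 50.7 and 965 ± 81.0 normalized counts (SD, n = 3 each), a log2 fold change of 0.29 ± 0.08 (SE; adjusted p = 0.0465 by limma). The adjusted p by limma was 0.0599 to 0.193 when any single library was left out, with a log2 fold change of 0.23 to 0.35. In gene-trap d alone the log2 fold change was 0.18.

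Psmb6, on chromosome 11 at 70525367 to 70527858 (plus strand), encodes the caspase-like cutting subunit. It had 1600, 1638 and 1819 normalized counts in wild type and 1982, 2290 and 1901 in gene trap, again without overlap and with gene-trap e highest. The means were 1685 ± 117 and 2058 ± 205 (SD, n = 3 each), a log2 fold change of 0.29 ± 0.08 (SE; adjusted p = 0.0476 by limma). It passed by limma without gene-trap f (adjusted p = 0.0325) and without wild-type g (0.0470), and with any other library left out the adjusted p was 0.0742 to 0.183. The log2 fold change was 0.21 to 0.34 with any single library left out.

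The other cutting subunits did not pass the test. Psmb5, the chymotrypsin-like subunit, had 197, 246 and 298 normalized counts in wild type and 305, 385 and 289 in gene trap. Gene-trap f was below wild-type g, so the groups overlapped. Its log2 fold change, the largest of the 14 standard 20S genes with all libraries in the fit, was 0.41 ± 0.15 (SE; adjusted p = 0.108 by limma). It was 0.26 without wild-type e, where that of Psmb3 was 0.33, and 0.29 without gene-trap e. Its reads come from a transcript with shared sequence (above). Psmb7, the trypsin-like subunit, had 2989, 3013 and 3243 normalized counts in wild type and 3492, 3805 and 3174 in gene trap, with a log2 fold change of 0.18 ± 0.08 (adjusted p = 0.148) and gene-trap f inside the wild-type range.

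The structural beta subunits did not share a direction. Psmb2, the beta gene with the highest level per kilobase, had 2645, 2561 and 2460 normalized counts in wild type and 2098, 2482 and 2188 in gene trap, a log2 fold change of -0.18 ± 0.07 (adjusted p = 0.131). Gene-trap e lay inside the wild-type range and the other 2 gene-trap libraries below it. Without gene-trap e its log2 fold change was -0.25 (adjusted p = 0.0195 by limma). Psmb4 had a log2 fold change of 0.23 with every gene-trap library above wild type, and Psmb1 had -0.04 with overlap.

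None of the 7 alpha subunits passed the test, with log2 fold changes from -0.20 to 0.30 and a median of 0.19. Psma6 had the largest, with 960, 1008 and 1197 normalized counts in wild type and 1396, 1344 and 1162 in gene trap. Gene-trap f lay below wild-type g, and the log2 fold change was 0.30 ± 0.10 (SE; adjusted p = 0.0646 by limma). Psma4 had the lowest, with 1000, 983 and 1063 normalized counts in wild type and 937, 944 and 783 in gene trap. Every gene-trap library of Psma4 was below the wild-type range, with a log2 fold change of -0.20 ± 0.09 (adjusted p = 0.156). Psma2, Psma5 and Psma7 lay above wild type in all 3 gene-trap libraries and Psma1 and Psma3 overlapped. The 14 standard 20S genes held 9 positive and 5 negative fold changes around a median of 0.20. Subunits that occur in equal number in the assembled barrel thus lay on both sides of 0.

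The germline subunit Psma8 was at a low level, with 14.9, 18.7 and 19.3 normalized counts in wild type and 27.8, 28.1 and 12.6 in gene trap. Its log2 fold change was 0.28 ± 0.35 (SE; adjusted p = 0.641 by limma). With 11 to 42 reads per library the interval ran from -0.47 to 1.04, and these libraries do not tell apart changes within it, no change among them.

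None of the 6 ATPases passed the test, with log2 fold changes from -0.09 to 0.25 and a median of 0.04. Psmc4 had the highest, with 909, 902 and 970 normalized counts in wild type and 1121, 1191 and 1006 in gene trap. All gene-trap libraries of Psmc4 were above the wild-type range, and the log2 fold change was 0.25 ± 0.08 (SE; adjusted p = 0.0635 by limma). Psmc3 also lay above wild type in all 3 libraries, with a log2 fold change of 0.24 ± 0.08 (adjusted p = 0.0610). Psmc2 had the lowest, with 2018, 2029 and 2066 normalized counts in wild type and 1887, 1996 and 1852 in gene trap. These were all below the wild-type range, but the difference was small, with a log2 fold change of -0.09 ± 0.06 (adjusted p = 0.365). For Psmc1 the group means were 2606 and 2605 normalized counts.

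None of the 11 non-ATPases passed either, with log2 fold changes from -0.14 to 0.25 and a median of 0.02. Psmd4, which encodes a ubiquitin receptor, had 1004, 918 and 1038 normalized counts in wild type and 1145, 1273 and 1102 in gene trap. It was the only non-ATPase with every gene-trap library above wild type, with a log2 fold change of 0.25 ± 0.08 (SE; adjusted p = 0.0675 by limma). Psmd11, a scaffold subunit of the lid, had 3201, 3059 and 3169 normalized counts in wild type and 2879, 2978 and 2702 in gene trap. All 3 gene-trap values were below wild type, with a log2 fold change of -0.14 ± 0.06 (adjusted p = 0.170). Psmd14, the deubiquitinase that removes ubiquitin chains at the entry to the core, had a log2 fold change of -0.04 with overlapping groups.

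The assembly chaperones of the 19S particle overlapped between groups. Psmd10 (gankyrin) had 181, 162 and 185 normalized counts in wild type and 169, 149 and 138 in gene trap, a log2 fold change of -0.22 ± 0.13 (SE; adjusted p = 0.295 by limma). Psmd9 had 248, 235 and 271 in wild type and 257, 312 and 248 in gene trap, with a log2 fold change of 0.11 ± 0.12 (adjusted p = 0.589). Exons of a gene on the opposite strand cover 1849 bases of the Psmd9 exons, and the sources used here do not give the strand setting of the counting. Psmc3ip, the member that is no subunit, had 16 to 41 reads per library and 30.9, 19.99 and 27.8 normalized counts in wild type against 27.1, 22.3 and 18.4 in gene trap, a log2 fold change of -0.20 ± 0.28 (adjusted p = 0.688).

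The gene-trap libraries differed from each other across the core subunits. All 31 had a lower normalized count in gene-trap f than in gene-trap e, gene-trap e was the highest of the 3 gene-trap libraries in 29, and gene-trap f was the lowest in 24. Relative to the wild-type mean, the log2 level of the median core subunit was 0.07, 0.17 and -0.07 in the gene-trap libraries and -0.01, -0.02 and 0.03 in wild type. The median of all genes tested was between -0.01 and 0.01 in each library. For the 20S genes the medians were 0.18, 0.28 and 0.12 in gene trap, all above the 0.08 of wild-type g, the highest wild-type library. For the 19S genes they were 0.03, 0.11 and -0.08, which spanned the wild-type range of -0.02 to 0.01. Atrial markers were highest in gene-trap e and next highest in gene-trap f, the libraries with the highest and the lowest core subunits among the gene-trap libraries.

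**Figure D3:**
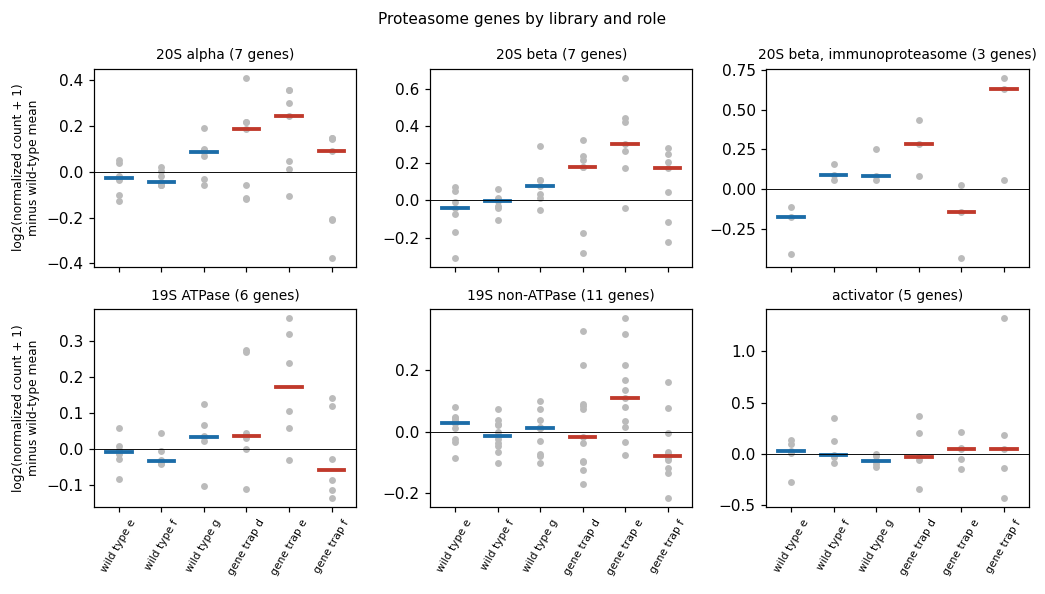
Level of each proteasome gene in each library as log2(normalized count + 1) minus its wild-type mean, by role (grey points, 1 per gene), with the median of the role as a bar (blue, wild type; red, gene trap). The 20S bars of the gene-trap libraries lie above 0 with gene-trap e highest, and the immunoproteasome bar is highest in gene-trap f.

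The immunoproteasome genes had another pattern across libraries, and none passed the test. Psmb8, on chromosome 17 at 34197721 to 34201454 (plus strand), had 57.1, 84.9 and 91.0 normalized counts in wild type and 103, 56.2 and 118 in gene trap. Gene-trap e held the lowest of the 6 values and gene-trap f the highest, and the log2 fold change was 0.21 ± 0.27 (SE; adjusted p = 0.655 by limma). Psmb9, its neighbour on chromosome 17 at 34181987 to 34187764 (minus strand), had 32.0, 38.7 and 38.5 normalized counts in wild type and 44.3, 32.8 and 59.7 in gene trap, with a log2 fold change of 0.28 ± 0.25 (adjusted p = 0.495). The order of the gene-trap libraries was that of Psmb8. Without gene-trap e the log2 fold changes were 0.53 for Psmb8 and 0.49 for Psmb9, without gene-trap f 0.0007 and 0.07, and without wild-type e 0.005 and 0.19, none of which passed. Without gene-trap d that of Psmb8 was 0.10, and without wild-type g it was 0.34. Exons of genes on the opposite strand cover 498 bases of the Psmb8 exons and 212 bases of the Psmb9 exons. Psmb10, on chromosome 8 at 105935735 to 105938444 (minus strand), had 257, 290 and 289 normalized counts in wild type and 294, 283 and 289 in gene trap. Its groups overlapped, with a log2 fold change of 0.05 ± 0.10 (adjusted p = 0.764).

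The intervals for Psmb8 and Psmb9 ran from -0.37 to 0.79 and from -0.26 to 0.82, with 48 to 156 and 28 to 67 reads per library. These libraries do not tell apart changes within those bounds, no change among them. The median of the 3 immunoproteasome genes, relative to wild type, was 0.28, -0.14 and 0.63 in the gene-trap libraries, lowest for e. Summed markers of other cell types also differed between the gene-trap libraries, in part with another order. The summed level of 8 endothelial markers was 14974, 9992 and 15946 normalized counts in gene trap, likewise lowest for e, and 11168 to 12709 in wild type, and all 8 were detected in every library. Cldn5 had the same order within gene trap, at 506, 487 and 674. Unlike the sum, it lay below its wild-type range of 638 to 768 in gene-trap d and inside it in gene-trap f. The sum of 8 macrophage markers, also detected in every library, was 503, 410 and 492 in gene trap and 281 to 451 in wild type. Of these, C1qa, C1qb, C1qc, Csf1r and Lyz2 lay above wild type in every gene-trap library, and Cd68, Ptprc and Adgre1 overlapped. The sum of 6 smooth muscle and pericyte markers was 7310, 6015 and 9376, against 7125 to 7456 in wild type. Rgs5 and Acta2 made up most of it and overlapped between groups. Myh11 (432 to 691 against 277 to 333), Tagln, Cnn1 and Kcnj8 lay above wild type in every gene-trap library. The sum of 7 fibroblast markers was 5313, 3787 and 5205, against 3089 to 4590. Dcn gave the largest part of it and overlapped, as did Lum, Pdgfra and Tcf21. Col1a1 (443 to 595 against 248 to 400), Col1a2 and Col3a1 lay above wild type in every gene-trap library. The sum of 5 lymphocyte markers was 3.51 to 11.5 in all libraries, with Cd3e at 0 in every wild-type library. Within gene trap the endothelial and the smooth muscle and pericyte sums had the order of Psmb8 and Psmb9, highest for f and lowest for e, and the macrophage and fibroblast sums were highest for d. Their part in the immunoproteasome values was not tested, and in bulk RNA more cells of a type and more RNA per cell cannot be told apart.

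The ratio of each immunoproteasome gene to its standard counterpart was taken within libraries. Psmb8 was at 29.1%, 34.5% and 30.5% of Psmb5 in wild type and at 33.8%, 14.6% and 40.9% in gene trap, as a ratio of normalized counts not adjusted for length. Psmb9 was at 2.00%, 2.37% and 2.12% of Psmb6 in wild type and at 2.24%, 1.43% and 3.14% in gene trap. Psmb10 was at 8.60%, 9.62% and 8.91% of Psmb7 in wild type and at 8.43%, 7.45% and 9.11% in gene trap. Per kilobase of annotated exon the ratio of Psmb8 to Psmb5 was 7.73% to 9.18% in wild type and 3.88% to 10.9% in gene trap, with the level of Psmb5 uncertain as above. That of Psmb9 to Psmb6 was at most 1.21% in wild type and 0.733% to 1.61% in gene trap, and that of Psmb10 to Psmb7 was 17.3% to 19.3% in wild type and 14.9% to 18.3% in gene trap. In each pair gene-trap e had the lowest ratio of the 6 libraries, and gene-trap f the highest of the gene-trap libraries. The differences in the log2 ratio, gene trap minus wild type, were -0.20, -0.005 and -0.12, with a two-sided exact permutation p of 0.9, 1 and 0.4 (1 for each after adjustment over the 3 ratios; 3 against 3 libraries allow no p under 0.1). Without gene-trap e the difference for Psmb8 to Psmb5 was 0.24 and that for Psmb9 to Psmb6 was 0.29.

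**Figure D4:**
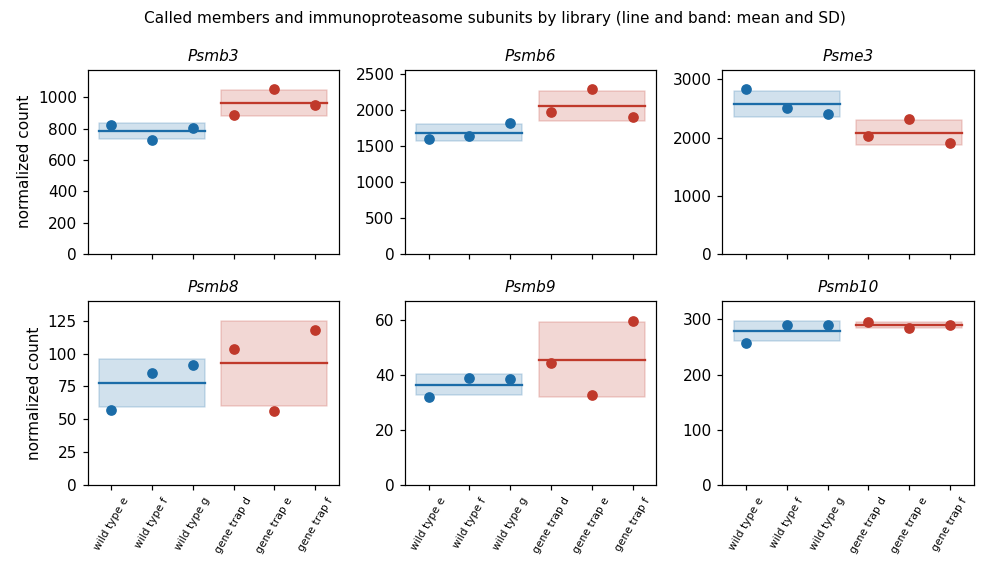
Normalized counts by library of the 3 genes that passed the test (Psmb3, Psmb6, Psme3) and of the 3 immunoproteasome genes, with wild type in blue and gene trap in red; lines and bands give the mean and SD of 3 libraries. Gene-trap values of Psmb3 and Psmb6 lie above and those of Psme3 below all wild-type values, while for Psmb8 and Psmb9 gene-trap f is the highest library and the lowest is gene-trap e for Psmb8 (56.2) and wild-type e for Psmb9 (32.0).

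Among the activators Psme3 fell. It encodes the nuclear activator PA28-gamma, which opens the core without ubiquitin, and lies on chromosome 11 at 101316213 to 101323537 (plus strand). It had 2828, 2512 and 2397 normalized counts in wild type and 2033, 2315 and 1905 in gene trap. All gene-trap values were below the wild-type range, gene-trap e being nearest to it. The means were 2579 ± 223 and 2084 ± 210 (SD, n = 3 each), a log2 fold change of -0.31 ± 0.09 (SE; adjusted p = 0.0409 by limma). It passed by limma without gene-trap e (adjusted p = 0.00477) and without wild-type g (0.0489) but not with any other library left out (0.0974 to 0.181). With any single library left out the log2 fold change was -0.39 to -0.24, and in gene-trap d alone it was -0.34.

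The remaining activators did not pass. Psme4 had 17767, 17323 and 17184 normalized counts in wild type and 16688, 16776 and 15778 in gene trap. These were all below wild type, by a log2 fold change of -0.09 ± 0.06 (adjusted p = 0.394 by limma). Psme1, which with Psme2 encodes the interferon-inducible activator PA28, had 2434, 2150 and 2277 normalized counts in wild type and 2230, 2359 and 2357 in gene trap, a log2 fold change of 0.02 ± 0.07 (adjusted p = 0.887). Psme2 had 344, 372 and 311 in wild type and 442, 355 and 388 in gene trap, a log2 fold change of 0.20 ± 0.11 (adjusted p = 0.249). Psme2b, whose sequence is close to that of Psme2, had 24.0, 37.5 and 27.8 in wild type and 33.7, 34.0 and 74.6 in gene trap. Gene-trap f stood above the other 5 libraries, the other gene-trap libraries lay inside the wild-type range, and the log2 fold change was 0.58 ± 0.32 (adjusted p = 0.257), or 0.20 without gene-trap f.

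The transcripts of the core subunits were described by composition, with no test. Across the 31 core subunits the Spearman correlation of the log2 fold change was 0.55 with the GC content of the principal transcript, -0.35 with its length and -0.37 with the mean normalized count. These are descriptions over genes that share the same 6 libraries, and no value over all genes was computed to set beside them. The 9 core subunits with every gene-trap library above wild type (Psma2, Psma5, Psma7, Psmb3, Psmb4, Psmb6, Psmc3, Psmc4 and Psmd4) had a GC content of 39.4% to 55.8% with a median of 53.5%, and a median length of 1239 bases. The 4 with every gene-trap library below (Psma4, Psmc2, Psmd7 and Psmd11) had 45.0% to 49.7% with a median of 48.3%, within the range of the former, and a median length of 1683 bases. The 9 are 29.0% of the core subunits, against 14.2% of all genes tested, and the 4 are 12.9%, against 17.7%. The 18 that overlapped had medians of 47.9% and 1566 bases.

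Genes that work with the proteasome were read from lists given by function, with all libraries in the fit and none left out. Of 8 tested genes of the NRF1 pathway, 2 fell and none rose, where 6.12% and 4.56% of all genes tested did; neither this list nor those that follow were tested as lists. Syvn1, a ubiquitin ligase of the endoplasmic reticulum, had 986, 841 and 938 normalized counts in wild type and 527, 509 and 507 in gene trap, a log2 fold change of -0.84 ± 0.08 (SE; adjusted p = 0.000146 by limma). Ddi2, the protease that cleaves NRF1 into its active form, had 1978, 2031 and 2007 in wild type and 1614, 1472 and 1693 in gene trap, a log2 fold change of -0.33 ± 0.07 (adjusted p = 0.0128). Both genes were below wild type in every gene-trap library. Nfe2l1, which encodes NRF1 itself, had means of 13210 and 13220 normalized counts and a log2 fold change of 0.00 ± 0.07 (adjusted p = 0.995).

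None of 5 factors of 20S assembly passed the test, among them Pomp, the chaperone of the beta ring, at a log2 fold change of 0.07. Of 8 other proteasome partners 1 fell: Ecpas, which encodes an adaptor that binds core to cap, had 11320, 11060 and 10630 normalized counts in wild type and 9514, 9822 and 9230 in gene trap, a log2 fold change of -0.21 ± 0.06 (SE; adjusted p = 0.0495 by limma). Of 12 genes of ubiquitin activation and of the VCP shuttle 1 rose and 1 fell, beside 4.56% and 6.12% of all genes. Vcp, the ATPase that extracts ubiquitinated proteins, rose by a log2 fold change of 0.26 ± 0.06 (adjusted p = 0.0270), from 4582 to 4835 normalized counts in wild type to 5290 to 5839 in gene trap. Its cofactor Ufd1 had a log2 fold change of -0.38 ± 0.08 (adjusted p = 0.0154), with 1047 to 1248 normalized counts in wild type and 818 to 916 in gene trap. Of 4 ubiquitin genes Rps27a, a fusion of ubiquitin with a ribosomal protein, rose by 0.34 ± 0.09 on the log2 scale (adjusted p = 0.0271).

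Of 10 genes of class I antigen presentation, the pathway that takes up peptides made by the proteasome, 2 rose and none fell (4.56% and 6.12% of all genes), around a median log2 fold change of 0.34. H2-D1, a class I heavy chain, had 938, 1144 and 1167 normalized counts in wild type and 1924, 1218 and 1971 in gene trap, a log2 fold change of 0.63 ± 0.16 (SE; adjusted p = 0.0270 by limma). Gene-trap d and f were well above wild type and gene-trap e only just. Psmb8, Psmb9 and the endothelial and the smooth muscle and pericyte sums were likewise highest for gene-trap f and lowest for e. The macrophage and fibroblast sums were highest for gene-trap d. The part of other cell types in the class I values was not tested. Tapbp (tapasin) had 940, 1065 and 1120 normalized counts in wild type and 1372, 1202 and 1279 in gene trap, highest for gene-trap d. Its log2 fold change was 0.30 ± 0.08 (adjusted p = 0.0398 by limma). Tap1, the peptide transporter gene, had 197, 247 and 211 in wild type and 305, 234 and 465 in gene trap and did not pass (log2 fold change 0.56 ± 0.20, adjusted p = 0.0879).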

How the data were processed

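RNA of 6 cardiomyocyte libraries (3 per strain) was made by the authors into stranded libraries after ribosomal depletion and read as 50-base single reads. By the submitters' processing notes and the study's methods, CASAVA 1.4, STAR 2.5.1b on GRCm38, featureCounts 1.6.0 and DESeq2 1.22.2 were used. Each deposited value is a signal: the reads of a gene over the size factor of its library, as the authors computed it. All values were whole multiples of the value of 1 read (tolerance 0.001), which gave back whole reads. The same deposited table also holds the authors' comparison (mean level, log2 fold change and its error, statistic, p-values), which was not used.

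Groups followed the sample titles. limma 3.58.1 (R 4.3.3) with a variance trend was fitted to log2(value + 1) for 13867 named genes with a mean of at least 10, with Benjamini-Hochberg adjustment and a threshold of 0.05. Rows without a gene name (0.00308% to 0.00378% of reads) were left out. edgeR 4.0.16 and DESeq2 1.42.0 on recovered reads, other pseudocounts, filters, scalings and variance settings, a replicate block and left-out libraries were alternatives. The ratios were tested by exact permutation with scipy 1.17.1. Coordinates, lengths and shared windows came from GENCODE M21, which held all 45 members. No pair of libraries within a strain was a repeat of the same reads, with chi-square 9.89 to 50.3 times its degrees of freedom. Named in full were members past the threshold, the catalytic and immunoproteasome genes, the activators and the largest and smallest change of each role; other genes named were added after their values were seen. The members and lists were chosen with earlier results of these data known.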

Additional observations from a re-analysis of the deposited data

How the results depend on the processing

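The members counted as higher and lower in the main fit were 2 and 1. Among the alternatives they were 5 and 1 with edgeR and 6 and 1 with DESeq2. Filtering at a mean of 1 gave 1 and 1, and no filter gave 5 and 1. Upper-quartile scaling gave 7 and 1, quantile normalization 7 and 0, and scaling to nuclear genes 8 and 1. Without the variance trend the counts were 0 and 0. Over all genes the shares higher and lower were 3.15% and 3.84% when filtered at 1, 2.94% and 3.05% unfiltered, 0.548% and 0.505% without the trend, and 4.64% to 5.26% and 5.00% to 6.43% in the other fits just named. With a single library left out they ranged from 0 to 5 and from 0 to 2. Alternatives chosen after seeing the data gave 7 and 0 (edgeR) and 6 and 0 (DESeq2) without gene-trap f, where 4.16% and 4.88% (edgeR) and 3.65% and 4.99% (DESeq2) of all genes were higher and lower. The fit of gene-trap d alone was also chosen after seeing the data and is used for fold changes only. The difference in log2 ratio ranged from -0.491 to 0.2448 for Psmb8 to Psmb5, from -0.2702 to 0.2859 for Psmb9 to Psmb6 and from -0.1896 to -0.04433 for Psmb10 to Psmb7 when a library was left out. The log2 fold change of Psme4 was 0.03016 with quantile normalization, those of Psme1 and Psmc3ip were -0.03465 and 0.07009 in gene-trap d alone, and leaving out a library gave -0.002473 to 0.0834 for Psmb10 and -0.02483 to 0.06485 for Psme1, with signs other than those reported at the first 3 values and at the lower end of both ranges; none of these passed the test. With the replicate block, which used the letters e and f shared by the strains, the counts were 4 (Psma6, Psmb3, Psmb5 and Psmb6) and 1 (Psme3). These are 9.09% and 2.27% of the members, where 4.572% and 5.365% of all genes were higher and lower. Same-lettered libraries correlated in their deviations at 0.11 and 0.15, and all other pairs across the strains at -0.15 to 0.08. With only 2 same-lettered pairs and no label that ties them, whether the letters pair the samples cannot be decided. The causes were not tested. The SE of the log2 fold change was at most 0.16 for the core subunits and 0.35 for Psma8, and the parts of read number and of spread between libraries in it were not separated.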
